A study of Mus musculus with 6 samples.

Results

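The array carried 649 probes, of 60930 different probes apart from control spots, whose names begin with mouselincRNA. They were chosen by that name and by the scanner software's mark for a non-control spot, and by no measured value. Earlier results of these data were known when the choice was made. Each name holds a number, a + or - sign and the ending P1, as in mouselincRNA0413+_P1; the names are shortened below to the number and sign where the prefix is clear. The sources used here do not say what the sign stands for, and they give no sequence, genome position or gene for these probes.

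Long intergenic noncoding RNAs (lincRNAs) are transcripts that lie between protein-coding genes and are not known to be translated into long proteins. Many are spliced and polyadenylated like messenger RNA. As a class they are usually less abundant and more restricted to single tissues than messenger RNA, and several take part in gene regulation in the nucleus. In the developing cerebellum, granule neuron precursors divide in response to Sonic Hedgehog, and Smoothened is the membrane protein that passes this signal on. A Smoothened that is always active can turn these precursors into medulloblastoma, a tumour of the cerebellum.

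Medulloblastoma (MB) cells came from mice 4 months old and were measured on 3 arrays titled MB1, MB2 and MB915. They were set against granule neuron precursors (GNPs) from mice 4 to 6 days old, which were measured on 3 arrays titled GNPs1, GNPs3 and GNPs4. All mice were C57BL/6 and carried the transgene Tg(Neurod2-Smo*A1)199Jols/J, so precursors and tumours alike came from animals with the active Smoothened, and no mouse without it was included. The transgene is driven by Neurod2 and described as active in cerebellar granule cells. Tumour and age differ together here and cannot be told apart. Nothing in the labels ties an array to an animal, so the spread behind each p-value may be technical only. In these bulk samples, fewer cells of a type and less RNA per cell cannot be told apart.

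Signal is the brightness of a spot after background subtraction by the scanner software. Level below means log2 of that signal minus the array's own 75th percentile over non-control probes, so a level of 0 is as bright as that percentile. The 75th percentile ran from 213 to 321 on the MB arrays and from 285 to 305 on the GNPs arrays. The MB1 and MB2 arrays differed by 1.06 times the noise between repeated spots of a probe, and the GNPs1 and GNPs4 arrays by 0.973 times, against 7.90 to 13.9 times for the other pairs within a group. Each near-identical pair was therefore averaged and counted as 1 sample, which left 2 samples per group. None of the 38 marker genes listed for precursors, tumours and other cerebellar cells had a probe named in the scanner files, where 15 accessions give gene names, so the labelled cell types could not be checked. With so few arrays, every value below has limited precision.

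Most of the mouse-named lincRNA probes were dim. A probe is called detected on an array where the scanner software marked it as well above background. Of the 649 probes, 187 (28.8%) were detected on all 6 arrays and 295 (45.5%) on none. The remaining probes were detected on some arrays, 126 of them without reaching every array of either group. Detection on every array was seen at 199 probes in MB (30.7%) and at 216 in GNPs (33.3%). The shares over all non-control probes except negatives were 61.6% and 64.8%. The human-named lincRNA probes of the same design had a like share on all 6 arrays, 27.6%, while 60.2% of the catalogue probes were detected there. These shares compare probes, and no test was run on them.

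The number of lincRNA probes detected varied as much between repeat arrays as between the groups. It was 230 on MB1, 286 on MB2 and 253 on MB915, against 256 on GNPs1, 254 on GNPs3 and 254 on GNPs4. The lowest and the highest of these 6 counts came from the near-identical tumour arrays. Of the probes, 58 were detected on MB2 and not on MB1, where their median signal was 14.03 on MB2 and 10.99 on MB1, and 2 the other way round. The least bright detected probe on these arrays had a signal of 11.61 on MB2 and 11.97 on MB1. Of the spots of negative probes, 2.67% to 5.33% were marked as detected on the MB arrays and 4.67% to 8% on the GNPs arrays.

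Levels were computed for the 228 probes (35.1%) that were detected on every array of at least 1 group, called tested probes below. Of these, 41 were not detected on all 6 arrays and passed through the detection of 1 group alone, which favours a difference. Their mean level over the 4 samples had a median of -2.60, and the middle 50% lay between -3.61 and -1.30, where the median over all 40887 tested probes of the array was -1.10. A mean level above 0 was found for 26 lincRNA probes, or 11.4%, against 36.7% of all tested probes. On single arrays the median signal of the tested lincRNA probes was 43.2 to 60.9 in MB and 42.7 to 47.7 in GNPs. Brightness also depends on the sequence of a probe, so these levels do not order the RNAs by amount.

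The probe with the highest level was mouselincRNA0161-_P1. Its signal was 64146 on MB1, 68246 on MB2 and 69539 on MB915, against 62943 on GNPs1, 67036 on GNPs3 and 55936 on GNPs4. Its level averaged 7.99 ± 0.33 in MB and 7.76 ± 0.17 in GNPs (n = 2 samples per group, SD). The groups overlapped, with a difference of 0.24 (limma adjusted p 0.786). After quantile normalization its difference was 0.0035, and in the authors' own normalized values it was 0.0001. Whether spots this bright were at the upper limit of the scanner was not checked. The next, mouselincRNA1188-_P1, had signals of 16757 on MB1, 16775 on MB2 and 41755 on MB915, against 48897 on GNPs1, 37017 on GNPs3 and 44887 on GNPs4. Its low values came from MB1 and MB2, while MB915 lay among the precursors.

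The main comparison asked which of these lincRNA probes differ between tumours and precursors. None passed. In limma, 0 of the 228 tested probes had a Benjamini-Hochberg adjusted p under 0.05, where the background over all tested probes was 0%. At an unadjusted p under 0.05 there were 13 of the 228 (5.70%), against 11.2% of all tested probes. The lowest adjusted p was 0.166, for mouselincRNA0101+_P1. With 6 arrays taken as separate samples, which counts each near-identical pair as 2 samples, limma called 17 lincRNA probes. Of these 14 were higher in MB, where the background was 7.02% of all tested probes, and 3 were lower, where it was 5.93%. They make up 7.46% of the 228, against 12.96% for the array as a whole. Differences were also small: the median size was 0.32 log2 units over the lincRNA probes and 0.41 over all tested probes.

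As a list, the lincRNA probes had a median difference of 0.18 log2 units (MB minus GNPs), with 152 higher and 76 lower in the mean. Over all tested probes the median was 0.08, with 55.6% higher, against 66.7% of the lincRNA probes. The same subtraction gave 0.25 for the 15 negative probes, of which 13 were higher in MB. Their median levels in the 4 samples were -6.35 to -6.74, far below the medians of -2.31 to -2.74 for the tested lincRNA probes. A link between the shifts of these sets was not tested. The median difference of the lincRNA probes depended on the scaling. After a median shift it was 0.03 with 119 higher and 109 lower, against -0.07 for all tested probes, of which 45.0% were higher. After quantile normalization it was 0.05 with 132 higher and 96 lower, against -0.01 and 49.3% higher. Relative to all tested probes the lincRNA list thus stood 0.10, 0.10 and 0.06 higher under the 3 scalings. Every MB sample lay above every GNPs sample at 88 lincRNA probes, or 38.6%, where the background was 28.1%. Every MB sample lay below every GNPs sample at 25, or 10.96%, where the background was 18.7%. After quantile normalization these counts were 60, or 26.3%, where the background was 23.1%, and 37, or 16.2%, where it was 21.5%. No direction is given for the list.

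The difference was also described by brightness. The 228 probes were divided into 4 bins of 57 by their mean level over all samples. From the dimmest to the brightest bin, the median difference was 0.25, 0.27, 0.24 and -0.02, and 35, 42, 48 and 27 probes were higher in MB. These are 61.4%, 73.7%, 84.2% and 47.4% of the bins. All tested probes in the same ranges of level had medians of 0.06, 0.18, 0.12 and 0.03, and 53.9%, 63.6%, 58.7% and 52.2% were higher in MB. After quantile normalization the 4 medians of the lincRNA probes were 0.03, 0.10, 0.12 and -0.02. Those of all tested probes were then -0.15, 0.004, 0.01 and -0.003. Of the 57 lincRNA probes in each bin, 29, 35, 43 and 25 were then higher in MB. Over all tested probes these counts were 1736 of 4145, 3369 of 6692, 4264 of 8362 and 10712 of 21533. The part of background signal in the dim bins was not tested. The negative probes lay below all 4 bins, at median levels of -6.35 in the mean of MB1 and MB2 and -6.64 in MB915. They stood at -6.73 in the mean of GNPs1 and GNPs4 and at -6.74 in GNPs3.

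Of the 26 lincRNA probes with a mean level above 0, 10 were higher and 16 lower in MB, with a median difference of -0.41, where the median over the 14958 tested probes with a mean level above 0 and a value in all 4 samples was 0.02. Of those bright probes 51.8% were higher in MB, against 38.5% of the 26. Every MB sample lay below every GNPs sample at 9 of the 26, where the background among those bright probes was 18.8%, and above at 1, where it was 23.9%. After quantile normalization 9 of the 26 were higher and the median was -0.43, against 7378 of the 14958 and a median of -0.009. A group of bright probes shared nearly the same values. For mouselincRNA0305-_P1 the level was 3.74 on MB1, 3.71 on MB2 and 4.49 on MB915, against 4.85 on GNPs1, 4.64 on GNPs3 and 4.87 on GNPs4. Its difference was -0.64 (limma adjusted p 0.581).

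The probes 1267-, 1606- and 0158- had differences of -0.59, -0.57 and -0.58, and the signals of all 4 were 2845 to 3373 on MB1 and MB2 and 6866 to 8881 on MB915, against 6879 to 10898 on the GNPs arrays. On these probes MB1 and MB2 were low, while MB915 lay next to GNPs3. With MB1 and MB2 left out, the differences of 0305-, 1267- and 1606- were -0.26, -0.29 and -0.24, and that of 0158- was -0.13. Further bright probes with lower MB samples were 1284+ at -0.61, 0706+ at -0.61, 0453+ at -0.61, 0538+ at -0.50 and 0712- at -0.76. Of these 5, MB1 and MB2 held the lowest values except at 0706+, where MB915 did. With MB1 and MB2 left out, the differences of 1284+, 0453+, 0538+ and 0712- were -0.40, -0.16, -0.23 and -0.27, and without MB915 that of 0706+ was -0.36. The 1 bright probe with both MB samples above both GNPs samples was mouselincRNA0478+_P1. Its signal was 574 on MB1, 603 on MB2 and 520 on MB915, against 328 on GNPs1, 286 on GNPs3 and 326 on GNPs4. The level averaged 1.06 ± 0.51 in MB and 0.07 ± 0.09 in GNPs (n = 2 samples per group, SD), a difference of 0.99 (SE 0.37, limma adjusted p 0.442), which was 0.63 without MB1 and MB2.

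Every MB sample lay at least 2-fold above every GNPs sample at 7 lincRNA probes, where the background was 2.51% of all tested probes, and at least 2-fold below at 1, where it was 2.61%. The 8 probes are 3.51% of those tested, against 5.12% of all tested probes. The higher count was 18 without MB915, and the lower count was 6 without GNPs3 and 3 with any other sample left out. Both directions together made up 9.21% of the lincRNA probes without MB915, against 19.7% of all tested probes. Without GNPs3 they made up 6.58%, against 10.8%. Both counts were 0 with normexp on median signals, against 1.69% of all tested probes. Of the 8, 4 were detected on all 6 arrays. The other 4 were not detected on some or all arrays of the lower group, where the values stand near the floor of the array, so only a bound on the fold can be given where no array of that group detected the probe.

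Among those detected on all 6 arrays, the gap between the groups was widest at 0413+ and 1424+. The signal of mouselincRNA0413+_P1 was 224 on MB1, 237 on MB2 and 111 on MB915, against 33.8 on GNPs1, 38.9 on GNPs3 and 28.9 on GNPs4. All MB arrays were brighter than all GNPs arrays, with MB915 lower than the other two tumour arrays. Its level differed by 2.33 log2 units (limma adjusted p 0.338), which was 1.53 without MB1 and MB2 and 3.13 without MB915. For mouselincRNA1424+_P1 the signal was 47.0 on MB1, 56.0 on MB2 and 55.2 on MB915, against 19.8 on GNPs1, 14.2 on GNPs3 and 20.7 on GNPs4. Here the tumour samples were alike: the level averaged -2.32 ± 0.31 in MB and -4.10 ± 0.32 in GNPs (n = 2 samples per group, SD), a difference of 1.78 (SE 0.34, limma adjusted p 0.244). The difference was 1.56 to 2.004 with any 1 of the 4 samples left out.

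The signal of mouselincRNA0392+_P1 was 142 on MB1, 127 on MB2 and 62.0 on MB915, against 25.6 on GNPs1, 13.1 on GNPs3 and 25.4 on GNPs4, and that of mouselincRNA1235-_P1 was 282, 300.2 and 101 on the same MB arrays, against 44.4, 43.7 and 41.4 on the same GNPs arrays. Both differences leaned on MB1 and MB2: for 0392+ the difference of 2.45 was 1.62 with these arrays left out and 3.27 without MB915, and for 1235- the difference of 2.12 was 1.09 and 3.15 in the same settings. Both had limma adjusted p above the threshold, 0.355 for 0392+ and 0.426 for 1235-. After normexp background correction on median signals, which adds an offset of 50, the differences of 0413+, 1424+, 0392+ and 1235- were 1.35, 0.69, 1.06 and 1.40.

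Detection on all MB arrays and no GNPs array was seen at 3 lincRNA probes, or 0.462%, where the background over all non-control probes was 0.639%. The signal of mouselincRNA1379-_P1 was 59.9 on MB1, 68.1 on MB2 and 20.6 on MB915, against 13.3 on GNPs1, 10.1 on GNPs3 and 11.2 on GNPs4. In the group means it was at least 3.05-fold higher in MB. The measured levels were -2.88 ± 1.54 in MB and -4.71 ± 0.15 in GNPs (n = 2 samples per group, SD, limma adjusted p 0.488). The difference of these levels, 1.84, was 0.75 without MB1 and MB2 and 2.93 without MB915. Bounds here and below set the mean of the bright group against the mean of the dim group. Each dim array entered at the lowest signal that the software still called well above background there. Where the probe's own signal was higher, that signal was used. The bounds hold for group means of the processed signals and are not a minimum for each sample. mouselincRNA1555-_P1 was at least 2.23-fold higher in MB, with signals of 39.5, 39.9 and 17.7 on MB1, MB2 and MB915, against 2.80, 2.50 and 4.21 on GNPs1, GNPs3 and GNPs4 (limma adjusted p 0.2501). mouselincRNA0152+_P1 was at least 1.45-fold higher (limma adjusted p 0.262). After normexp correction on median signals the differences of 1379-, 1555- and 0152+ were 0.68, 0.67 and 0.37 log2 units. These lie below their bounds, which are 1.61, 1.16 and 0.53 in log2 units. The probe mouselincRNA0293+_P1 had signals of 84.4 on MB1, 90.7 on MB2 and 41.9 on MB915, against 11.2 on GNPs1, 13.8 on GNPs3 and 13.2 on GNPs4, and was detected on 1 of the 3 GNPs arrays. Its difference was 2.35 (limma adjusted p 0.332), and it was named after its values were seen.

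Detection on all GNPs arrays and no MB array was seen at 5 lincRNA probes, or 0.770%, where the background was 0.959%. The signal of mouselincRNA0101+_P1 was 3.09 on MB1, 3.51 on MB2 and 3.21 on MB915, against 29.1 on GNPs1, 26.5 on GNPs3 and 30.9 on GNPs4. The precursor arrays were alike and the tumour arrays stood at the floor, so that it was at least 1.87-fold lower in MB (limma adjusted p 0.166). It was the 1 lincRNA probe at which every MB sample lay at least 2-fold below every GNPs sample. mouselincRNA0553+_P1 had signals of 3.12 on MB1, 10.4 on MB2 and 3.21 on MB915, against 78.1 on GNPs1, 13.9 on GNPs3 and 80.4 on GNPs4. In the group means it was at least 2.20-fold lower in MB (limma adjusted p 0.422). That bound rests on GNPs1 and GNPs4, with a mean level of -1.91, and does not hold for GNPs3, at -4.36. Its precursor samples differed more from each other than GNPs3 did from MB2, and the difference in level of -2.83 was -1.60 without GNPs1 and GNPs4. In the group means, the probes 0909-, 0591+ and 1454+ were at least 1.36-fold, 1.09-fold and 1.04-fold lower (limma adjusted p 0.548, 0.564 and 0.685). At 1454+ the groups overlapped, with MB915 at a level of -4.43 and GNPs3 at -4.45. After normexp correction on median signals the differences of 0101+ and 0553+ were both -0.39 log2 units. Those of 0909-, 0591+ and 1454+ were then -0.04, 0.08 and 0.08. None of these differences reached the bound of its probe, so the bounds hold for the processed signals without this correction.

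The other lincRNA probes detected on all 6 arrays without overlap of the groups had smaller differences. Of the 187 probes detected on all 6 arrays, the groups did not overlap at 75 higher in MB (40.1%), where the background was 28.6%, and at 18 lower (9.63%), where it was 16.9%. Next in size on the higher side were 0394+ at 1.37, 1098+ at 1.36 and 0315- at 1.12. After these came 0713+ at 0.92, 1559- at 0.89, 0463- at 0.80 and 1042+ at 0.79. On the lower side the largest were 0435+ at -0.91 and 1337+ at -0.79. They were followed by 1377+ at -0.61 and 0118+ at -0.49, beside the bright probes given above. With MB1 and MB2 left out, 0394+ stood at 0.10, 1098+ at 0.70, 0315- at 0.37 and 1377+ at -0.30, while 1559- stood at 0.84 and 1042+ at 0.89. Without GNPs1 and GNPs4 0118+ stood at -0.12, and without GNPs3 1337+ stood at -0.43.

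The sign in the names makes 317 pairs of probes that share a number and differ in + or -, which leaves 15 probes without a mate. Detection on all 6 arrays was seen at 85 of 322 probes named + (26.4%) and at 102 of 327 named - (31.2%). In 37 pairs (11.7%) both probes were tested, in 154 (48.6%) only 1 was, and in 126 (39.7%) neither was. Of the 154, the mate was detected on no array at all in 109. Where the + probe was tested, the - probe was tested in 37 of 107 pairs (34.6%). Where the + probe was not tested, the - probe was tested in 84 of 210 (40.0%). Detection of a probe thus did not come with more frequent detection of its mate in these counts.

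The tumour differences of mates were also set side by side. Of the 37 pairs with both probes tested, the differences had the same sign in 17, both higher in MB in 14 and both lower in 3, and opposite signs in 20. The differences lay less than 0.5 log2 units apart in 21 pairs and 1 unit or more apart in 6. The groups did not overlap at either probe in 8 pairs, and in 6 of these the direction was shared. No test of a difference between mates was run.

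At number 0413 the + probe differed by 2.33 and the - probe by 0.02. mouselincRNA0413-_P1 was detected on all 6 arrays, with signals of 77.9 on MB1, 75.1 on MB2 and 105 on MB915, against 109 on GNPs1, 86.3 on GNPs3 and 109 on GNPs4. At number 1235 it was the - probe that differed, by 2.12, while the + probe stood at -0.05, with signals of 98.3 on MB1, 108 on MB2 and 160 on MB915, against 172 on GNPs1, 126 on GNPs3 and 166 on GNPs4. At 0293 the + probe differed by 2.35 and the - probe, detected on all 6 arrays, by -0.05. At 0394 the values were 1.37 for the + probe and -0.10 for the - probe. In these pairs a probe near 0 stands beside a mate with a difference above 1 log2 unit on the same arrays, under the same scaling.

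Of the other pairs 1 unit or more apart, 1379 had both probes higher in MB in the mean, at 0.42 for + and 1.84 for -, and 1052 had opposite signs without overlap at either probe, at -0.72 for + and 0.61 for -. The pairs 0293, 1379 and 1052 were chosen after their values were seen. For the remaining 5 of the 8 probes set at least 2-fold apart, 0392+, 1424+, 1555-, 0152+ and 0101+, the mate was detected on no array. None of the probes named from the pairs passed in limma, where the lowest adjusted p among them was 0.166, for 0101+.

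The samples of a group differed from each other at some lincRNA probes by more than the groups did. The tumour samples were at least 2-fold apart at 32 of the 228 probes (14.0%), where the background was 23.7% of all tested probes. Of the 32, 21 were higher in the mean of MB1 and MB2 and 11 in MB915. The precursor samples were at least 2-fold apart at 11 probes (4.82%), where the background was 11.6%. The widest gap lay between the precursors at mouselincRNA0744+_P1, with signals of 27.6 on MB1, 30.4 on MB2 and 21.4 on MB915, against 18.3 on GNPs1, 125 on GNPs3 and 22.9 on GNPs4. GNPs3 stood alone there. The opposite was seen at mouselincRNA0079+_P1, with signals of 20.9 on MB1, 27.1 on MB2 and 29.5 on MB915, against 151 on GNPs1, 24.2 on GNPs3 and 149 on GNPs4. Here GNPs3 lay among the tumour arrays, and the 2 near-identical precursor arrays were bright together. For mouselincRNA0394+_P1 MB1 and MB2 were bright, at 141 and 158, with 37.5 on MB915, against 33.9 on GNPs1, 32.9 on GNPs3 and 27.7 on GNPs4. These 3 probes show how far a mean over 2 samples can rest on 1 of them.

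The arrays fell into 2 sets by scan time, called slides here, with arrays of both groups in each. Whether each set was 1 physical slide was not checked. On slide 1, which held GNPs1, GNPs3, MB2 and MB915, 0 of the 228 passed in limma, with 13 (5.70%) at an unadjusted p under 0.05, where the background was 11.2%. There, 7 probes had every MB sample at least 2-fold above every GNPs sample, where the background was 2.5%, and 1 at least 2-fold below, where it was 2.57%. Slide 2 held MB1 and GNPs4 alone, which allows no test. The median difference of the lincRNA probes was 0.18 on slide 1 and 0.19 on slide 2, and since both arrays of slide 2 are near-identical to an array of slide 1 this is no independent replication. For 0413+, 1424+, 0392+ and 1235- the difference was 2.28, 1.85, 2.39 and 2.11 on slide 1 and 3.41, 1.63, 2.93 and 3.22 on slide 2.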

How the data were processed

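Spot intensity values of 6 single-colour Agilent arrays come from the authors' scanner output, produced with Feature Extraction 11.0.1.1 per the file headers. A normalized log2 table was also deposited by the authors; its making is not described in the sources used here, its direction and scale follow each array's own scanner values, and its centring is unknown. Levels are the log2 processed signal, without outlier spots and averaged per probe, minus the 75th percentile of all non-control probes on that array. Probes tested were detected on every array of at least 1 group, without 15 negative probes. Arrays under 1.5 times the spot noise apart were averaged. The difference of tumour minus precursor was fitted in R 4.3.3 by limma 3.58.1 with two-sided moderated tests (lmFit, eBayes), reading files with the data.table package (version 1.17.8), and adjusted by Benjamini-Hochberg over all tested probes. The code was tested on simulated data. Recovery of changed probes was required there only for groups larger than those measured here, so the power of this comparison was not established.

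With 2 samples a group, an exact permutation test over samples cannot go below 0.333, so none is given. The members and lists were chosen with earlier results of these data known. Named probes are those detected on all 6 arrays whose groups do not overlap, 12 a direction by size of difference, those detected in 1 group alone, the 5 with the highest level, the 3 with the widest range within a group, and sign pairs on all 6 arrays with a difference of 1 log2 unit or more. Likeness between probes, also planned, was not computed, since only 4 samples are independent.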

Additional observations from a re-analysis of the deposited data

How the results depend on the processing

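No paired analysis was possible because the groups share only 1 replicate number. The count of lincRNA probes passing in limma was 0 under the other scalings, filters, variance models and left-out samples, on slide 1 and with repeats as a random block and slide as a term, and 17 with 6 arrays as separate samples. The count at least 2-fold apart, 7 higher and 1 lower, was 7 and 2 after median scaling, 6 and 2 after quantile normalization and in the authors' normalized table, and 0 and 0 with normexp on median signals. Both directions together made up 3.95% after median scaling, against 5.32% of all tested probes. They made up 3.51% after quantile normalization, against 5.15%, and 3.51% in the authors' table, against 5.19%. The count was 4 and 0 among probes detected on all 6 arrays (2.14%, against 3.27% of all probes so detected). Without a filter on dim probes it was 16 and 4 (3.09%, against 4.49% of all probes). On slide 2, which compares 2 arrays, it was 20 and 18 (16.7%, against 30.6% of all tested probes). With a sample left out it ran from 9 to 18 higher and from 3 to 6 lower. The highest came without MB915 and without GNPs3, and fewer samples make a gap between groups easier to reach. With both directions together, the share of the lincRNA probes lay below that of all tested probes in each of these settings. On the higher side alone the order varied with the setting. There it was 7 of 228 against 1027 of 40887 in the main setting and 7 of 228 against 861 of 40887 after median scaling. Without MB915 it was 18 of 228 against 4422 of 40887. The median difference of 0.18 was 0.033 after median scaling, 0.051 after quantile normalization, 0.048 in the authors' table and 0.28 without a filter, and ran from 0.12 (without GNPs3) to 0.19 (without GNPs1 and GNPs4) with a sample left out. Counting detection on at least 1 array gave 315 probes detected in MB and 295 in GNPs, against 199 in MB and 216 in GNPs on every array, which turns the order of the groups. The order turned likewise over all non-control probes except negatives. There it was 75.6% in MB and 73.4% in GNPs on at least 1 array, against 61.6% and 64.8% on every array. Counting at least 1 array also raised the sign pairs with both probes to 98 of the 317, where 37 had both tested, and brought those with neither to 68, against 126. The cause was not tested for the scalings and normexp.

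Signs that turned were those of small differences or of single samples. With normexp, 0591+ stood at 0.084, 1454+ at 0.083, 0394- at 0.033 and 1235+ at 0.039. 0744+ stood at 0.44 without GNPs3, at -2.23 without GNPs1 and GNPs4 and at 0.72 on slide 2, and 0079+ at 0.23 without GNPs1 and GNPs4 and at -2.34 without GNPs3. 0394- stood at 0.08 with 6 arrays, 0.47 on slide 2, 0.27 without GNPs3 and 0.07 without MB915, with a range over left-out samples of -0.46 to 0.27. 0413- stood at -0.013 with 6 arrays, -0.13 after median scaling, -0.064 after quantile normalization, -0.069 in the authors' table, -0.12 without GNPs3, -0.02 without MB1 and MB2, -0.0009 on slide 1 and -0.039 on slide 2, and ran from -0.12 to 0.16 over left-out samples. 1235+ stood at 0.13 without GNPs1 and GNPs4 and at -0.23 without GNPs3. The number of arrays and signals near background limit the dim probes.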
